A study of Caenorhabditis elegans with 2 samples.

Results

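The mitochondrial unfolded protein response of Caenorhabditis elegans was represented by 9 genes of 19973 protein-coding genes on the nuclear chromosomes. They were picked by name for their roles in the response, with earlier results of these data known. They were the transporter gene haf-1, the protease gene clpp-1 and the nuclear regulators ubl-5, dve-1 and atfs-1. The chaperone genes hsp-6 and hsp-60 and the prohibitin genes phb-1 and phb-2 completed the set. For each, binding of the bZIP transcription factor ZIP-8 was read from peak lists made by ChIP-seq against eGFP-tagged ZIP-8 in mixed-stage embryos. The worms were of strain OP327, which carries the unc-119(ed3) III allele and the integrated transgene wgIs327. Both biological replicates shared this genotype, stage and pooled sex, and their age is given as unknown, so there was 1 group and no comparison of conditions. No untagged strain and no other genotype, stage or stress was analysed here, and whole embryos mix all cell types. The labels do not say whether the replicates came from separate cultures. A gene was given the peaks whose summits lay between 5 kb upstream of its start and its end, on the build WBcel235 (ce11). Member windows were 6016 to 11778 bp long with a median of 7637 bp, against a median of 7027 bp for protein-coding genes.

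In this response, damaged protein inside mitochondria changes transcription in the nucleus. The protease CLPP-1 cuts unfolded matrix proteins into peptides, HAF-1 exports peptides across the inner membrane, and the bZIP factor ATFS-1, which is imported and degraded in healthy mitochondria, then reaches the nucleus. The ubiquitin-like UBL-5 and the homeodomain protein DVE-1 act with it on chaperone genes such as hsp-6 and hsp-60. Prohibitins form a ring complex in the inner membrane, and their loss triggers the response. bZIP proteins bind as dimers to short, nearly palindromic DNA words. Here 6 words of 8 bases were searched on both strands, wholly within 50 bp of a summit: the cAMP response element (CRE) palindrome TGACGTCA, the CRE variant TGACGTAA, the C/EBP palindrome TTGCGCAA, the PAR palindrome TTACGTAA, the C/EBP-ATF composite TGATGCAA and the C/EBP-CRE hybrid TGACGCAA. The composite word is the element that C/EBP-ATF dimers, such as CHOP with ATF4, use in mammals. Each word is called a full site below.

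The sites below are shown because the members with an optimal peak and the members without one differed in the kind of word at their summits. Sequences are the RefSeq sequence of WBcel235, read 5′ to 3′ on the strand that spells the word, with the word in capitals and 11 bases on each side.
clpp-1, CRE palindrome at the optimal summit: gctgaaagcgaTGACGTCAccagccgacgg
atfs-1, CRE palindrome at the optimal summit: acccatgataaTGACGTCAtccgattcgtt
dve-1, C/EBP palindrome at the optimal summit: gcatagcgaagTTGCGCAAccacgttatgc
haf-1, CRE palindrome in the coding sequence, at a summit below the optimal list: aatgatgcttaTGACGTCAttggagttgtc
hsp-60, composite upstream, at a summit below the optimal list: agcgagtgaaaTGATGCAAaagtctattct
hsp-60, composite in an intron, at a summit below the optimal list: attggcagctcTGATGCAAtttttcattca
phb-2, composite upstream, at a summit below the optimal list: caaaagaaataTGATGCAAaaatcgtttca
hsp-6, composite upstream, at a summit of replicate 2 only: tgtttgaaagtTGATGCAAaagcccgtgat
The palindromes shown at optimal summits are of the CRE and C/EBP types. At summits below the optimal list or of replicate 2 alone, both chaperone genes and phb-2 had the composite word. The windows of hsp-6 (7 words) and phb-2 (2 words) held only composites, so no other kind could appear there. The phb-2 summit was near the end of the pooled list (rank 28429 of 30000), and no pooled hsp-6 summit had the word. Of the pooled summits with a composite, only that in the hsp-60 intron also had it at a replicate summit (replicate 2, signal 2.36). Composite words also lay in the windows of ubl-5, atfs-1, haf-1 and phb-1, but not within 50 bp of a summit there. Among all summits with a full site, composites were at 2.34% on the optimal list and 11.6% below it. Whether the contrast between members goes beyond that between the lists was not tested.

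Each deposited peak carries a signal value set by the authors' caller. No source used here states its scale, so signals are read only within a list. The optimal list is the set of reproducible peaks chosen by the irreproducible discovery rate (IDR), and its signals ran from 21.4 to 1224 with a median of 38.5 over 2634 peaks. The pooled list, called on both replicates together, held 30000 peaks with a median of 4.92. Replicate 1 held 22803 with a median of 4.03, and replicate 2 held 12222 with a median of 3.64. By its label the pooled list holds peaks and background used as input for IDR. Its −log10 q-values ran down to 0.359, so a place on it alone does not make a region a significant peak. The lists do not give read counts, so the depth behind a peak is unknown.

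Of the 9 members, 6 had an optimal summit in the window, namely ubl-5, dve-1, atfs-1, clpp-1, haf-1 and phb-1; across protein-coding genes this share was 17.6%. Both chaperone genes and phb-2 had none. With the pooled list all 9 members had a summit, where 81.8% of protein-coding genes did, so the pooled list hardly separates the members from other genes. Replicate 1 gave 8 members (not hsp-6) against 78.9%, and replicate 2 gave 8 (not dve-1) against 58.6%. An optimal summit with a full site lay in the windows of 5 members, against 14.6% of protein-coding genes. Taken over summits, 5 of the 6 member summits had a full site, near the 78.7% of all optimal summits. For 4 members, ubl-5, dve-1, atfs-1 and clpp-1, the member's own start was the nearest protein-coding start to its optimal summit, against 9.58% of protein-coding genes. Member windows held 8.21 optimal summits per 100 kb, and the nuclear genome 2.60. As the members were chosen with earlier results known, neither this nor the shares above are an unbiased comparison. With replicate 1 left out, taking as many top peaks of replicate 2, the count fell from 6 to 3 members (ubl-5, hsp-60 and phb-1), and with replicate 2 left out it was 6. The share over protein-coding genes without replicate 1 was 17.5%. Of the 3 summits found without replicate 1, 1 had a full site, where 49% of all summits in that setting did.

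**Figure D1:**
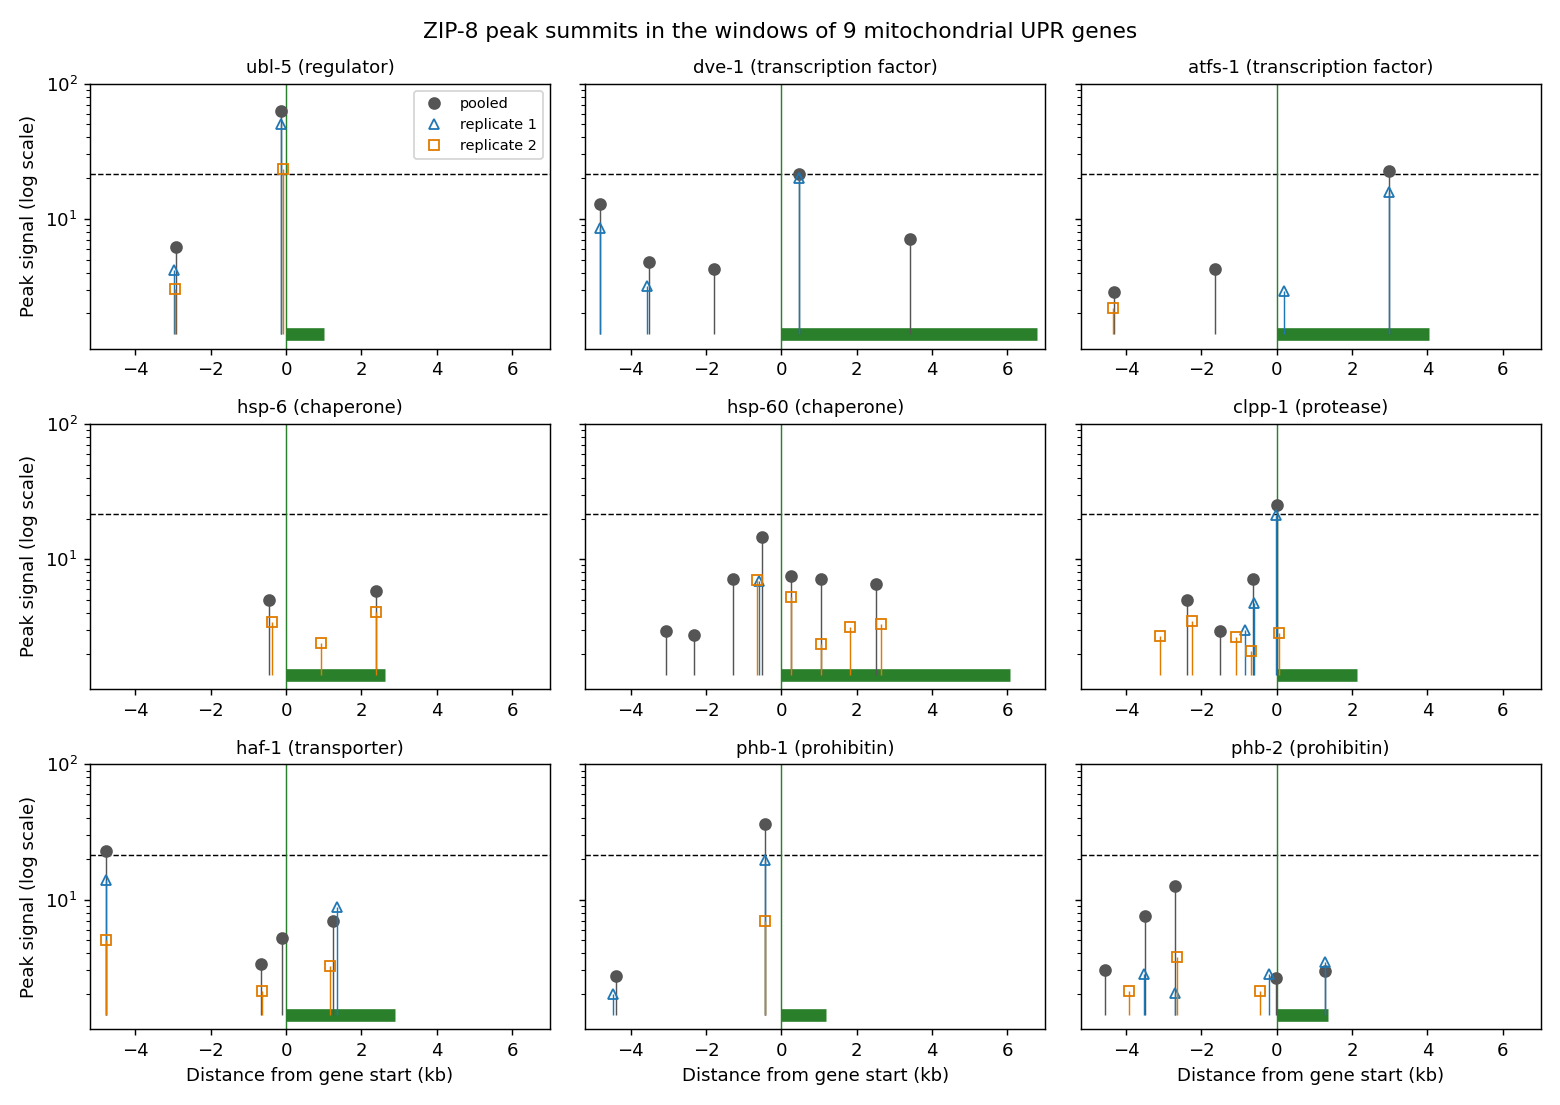
Peak summits in the window of each of the 9 genes, by distance from the gene start in kb (x axis) and peak signal on a log scale (y axis, each list on its own scale). Grey circles are pooled, blue triangles replicate 1 and orange squares replicate 2; the green bar is the gene, and the dashed line marks 21.4, the lowest signal of the optimal list, for the pooled circles. A single pooled summit reaches the line in 6 genes and none does in hsp-6, hsp-60 and phb-2.

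The transporter and the protease, which lie at the mitochondrial end of the response, each had 1 optimal peak. The clpp-1 peak (signal 25.02, optimal rank 2219) had its summit at II:10302826, 16 bp inside the gene. Its CRE palindrome, at II:10302804–10302811, covers coding bases 17 to 24 of 663 in the first exon of transcript ZK970.2d.1. Of the 4 clpp-1 transcripts, this is the only 1 in which the word is coding. The replicate 2 summit, II:10302783, was 8 bp inside another transcript start, and the word lies upstream of that start. The replicates ranked the clpp-1 peak differently. In replicate 1 its signal was 21.4 (rank 1644), and in replicate 2 it was 2.83 (rank 8554), below that list's median. The other clpp-1 summits lay upstream, over or beside vha-9 and gcy-4, with pooled signals from 2.94 to 7.15. In replicate 2 the highest signal in the window, 3.52 (rank 6419), was at a summit in a gcy-4 intron and not at the CRE palindrome.

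The haf-1 peak was the least clearly tied to its gene. Its summit at IV:17371651 lay 4776 bp upstream, near the edge of the window, 118 bp from the start of C30H6.5 and 52 bp from the piRNA gene 21ur-14644. It had signal 22.8 and optimal rank 2460, with 14.04 in replicate 1 (rank 2605) and 5.01 in replicate 2 (rank 4099). This was the 1 optimal member summit without a full site. The word at IV:17371650–17371657 differed from the C/EBP palindrome by 1 base, with the substitution G3A (palindrome base first, counted from its 5′ end). It also differed by 1 base from the PAR palindrome and by 1 base from the hybrid, so its kind is not settled. Of the 556 optimal summits without a full site, 59.4% had a CRE or C/EBP palindrome with 1 mismatch. Of 49640 tiles of 101 bp, every 20th of the genome, 6.83% had one with at most 1 mismatch. Unlike the summit share, the tile share includes intact palindromes. The 101 bases around the summit are shown with that word in capitals, from IV:17371601-17371701.
haf-1 upstream summit: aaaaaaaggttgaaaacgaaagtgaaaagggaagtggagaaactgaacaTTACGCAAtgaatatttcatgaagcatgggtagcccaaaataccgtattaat
A second haf-1 summit of the pooled list, within the gene, carried the intact CRE palindrome printed above, at IV:17377678–17377685 in exon 4 of 9 (coding bases 695 to 702 of 2031). Its pooled signal was 6.99 (rank 9200). The replicate summits in that stretch, with 8.77 in replicate 1 (rank 4074) and 3.23 in replicate 2 (rank 7286), had no full site within 50 bp. Thus the intact site lay at a pooled summit below the optimal list, and the optimal summit lay at a word with 1 mismatch.

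The atfs-1 peak lay inside the gene for the master transcription factor of the response. Its summit at V:14196640 was 2977 bp from the gene start and 295 bp from the nearest transcript start, in coding sequence. The CRE palindrome at V:14196632–14196639 covers coding bases 776 to 783 of 1464 in transcript ZC376.7a.1, where it is in exon 6 of 7, and bases 155 to 162 of 843 in the shorter ZC376.7d.1. The signal was 22.6 (optimal rank 2487), with 15.9 in replicate 1 (rank 2303) and no overlapping peak in replicate 2. The window from V:14196590-14196690 is shown with the CRE palindrome in capitals.
atfs-1 summit: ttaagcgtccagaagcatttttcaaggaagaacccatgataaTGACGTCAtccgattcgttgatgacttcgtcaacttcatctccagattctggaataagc
The summit falls 1 base past the palindrome. Upstream of atfs-1, the pooled summits had signals of 4.28 and 2.87 and lay over ints-2.

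The dve-1 peak was the weakest of the 6, with signal 21.5 and rank 2630 of 2634. Its summit, X:433348, lay 464 bp into the gene, in the 5′ UTR of 2 of its 10 transcripts, with the C/EBP palindrome X:433343–433350 beneath it. Replicate 1 placed its summit at the same base, with signal 20.003 (rank 1796), and replicate 2 had no summit anywhere in the dve-1 window. Of 3 pooled summits upstream of the gene, the farthest, 4810 bp from the start, had 12.9 in the pooled list (rank 4224) and 8.49 in replicate 1 (rank 4228), with no full site.

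The ubl-5 peak had the highest signal of the members in all 3 lists: 63.1 in the pooled and optimal lists (optimal rank 574), 50.6 in replicate 1 (rank 416) and 23.6 in replicate 2 (rank 383). Its summit lay 132 bp upstream of the start, with replicate summits 11 bp and 43 bp away. The deposited interval is 95 bp long and begins 1 base past the C/EBP palindrome at I:5608954–5608961, which lies inside both replicate intervals. A weaker summit over the snoRNA gene F46F11.12, in an intron of trpp-8, had a pooled signal of 6.18 (rank 11038).

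**Figure D2:**
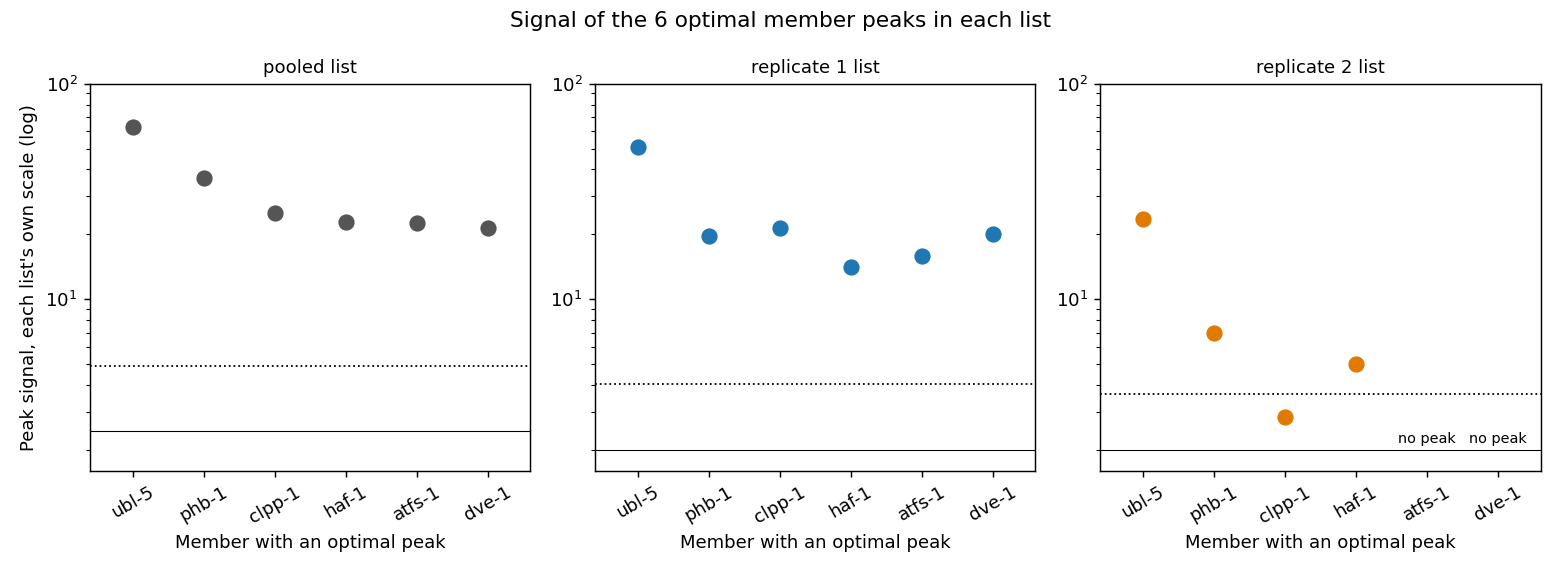
Signal of the 6 optimal member peaks in the pooled, replicate 1 and replicate 2 lists (log scale, 1 panel per list, each on its own scale; 1 point per peak). Dotted lines are each list's median signal and solid lines its lowest signal; ubl-5 is highest in each panel, and atfs-1 and dve-1 have no peak in replicate 2.

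An overlapping peak was found in both replicates for 4 of the 6 optimal member peaks, and in replicate 1 for all 6. Over the whole optimal list 81% overlapped both, and among the 633 peaks with ranks over 2000, where 4 member peaks lay, 60.2% did. Of those 4, clpp-1 and haf-1 overlapped both replicates, and atfs-1 and dve-1 overlapped replicate 1 only. In replicate 2, ubl-5 ranked in the top 3.13% of its list and clpp-1 at 70%. The authors' optimal list on the build ce10 is shorter, with 2473 peaks and a lowest signal of 22.7, and holds ubl-5, clpp-1, haf-1 and phb-1 but not atfs-1 or dve-1. The haf-1 signal of 22.8 lies just above that lowest signal. Of the 6 calls, those for atfs-1 and dve-1 therefore depended on where the list ended.

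The chaperone genes, the usual readout of the response, had no optimal peak. For hsp-60, the mitochondrial chaperonin, the highest pooled summit (signal 14.6, rank 3779) was at III:1619214, 528 bp upstream. It lies between hsp-60 and the divergent gene Y22D7AL.10, whose start is 285 bp away and which encodes a co-chaperonin of the HSP10 family. Replicate 1 gave 6.92 (rank 5401) and replicate 2 gave 7.001 (rank 2494). Neither replicate summit had a full site within 50 bp, and the composite word was thus at the pooled summit alone. That word lay inside the replicate 1 interval, but the replicate 2 interval ended before it. The pooled and replicate 1 intervals also held a hybrid word at III:1619275–1619282, not within 50 bp of any summit. The window III:1619164-1619264 is shown with its composite word (III:1619227–1619234) in capitals.
hsp-60 upstream summit: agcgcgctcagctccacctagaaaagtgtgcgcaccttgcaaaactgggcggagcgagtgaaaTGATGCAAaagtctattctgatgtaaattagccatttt
Of the 7 pooled summits of hsp-60, 3 lay in introns of hsp-60 with signals from 6.53 to 7.47, and 1 of these, at 7.19, had the second composite word.

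For hsp-6, the mitochondrial HSP70, the highest pooled signal was 5.83 (rank 11991), at a summit in its 3′ UTR, with 4.04 in replicate 2 (rank 5435). The other pooled summit lay 442 bp upstream with signal 5.01 (rank 14645). In replicate 2 a summit 362 bp upstream had signal 3.43 (rank 6673) and the composite word, and replicate 1 had no summit in the window. The 500 bp upstream of hsp-6, a length chosen after its values were seen, held 4 composite words, of which 1 is printed above and 2 more are shown here.
hsp-6, upstream composite: gttttcgttcaTGATGCAAttttctttcag
hsp-6, another upstream composite: taggagaataaTGATGCAAaatattggaaa
Among 19973 protein-coding genes hsp-6 was the 1 gene with 4 or more in that length, 11 genes had 2 or more, and 413 (2.07%) had 1 or more. The divergent neighbour C37H5.5 shares this region and, with 3 composite words, was the only other gene with 3 or more. Its start was also nearer to both upstream summits, 158 bp from the pooled summit and 238 bp from the replicate 2 summit. Neither the words nor the summits can therefore be assigned to hsp-6 alone.

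The prohibitin genes differed from each other. The phb-1 peak had signal 36.3 (optimal rank 1423), 19.7 in replicate 1 (rank 1836) and 6.98 in replicate 2 (rank 2508), so it lay above the median of both replicate lists. Its summit at I:2070913 was 439 bp upstream of phb-1 and 306 bp from the start of Y37E3.8, which is nearer. The C/EBP palindrome lay at I:2070955–2070962, with its centre 45.5 bp from the summit. The replicate 1 summit had this word within 50 bp. The replicate 2 summit had no full site within 50 bp, though the replicate 2 interval held the word. The phb-2 window had no optimal peak. Its highest pooled signal, 12.6 (rank 4333), came from an intron of T24H7.2, 2706 bp upstream and beside the snoRNA gene T24H7.6, with 2.03 in replicate 1 (rank 22592) and 3.79 in replicate 2 (rank 5821). The summit 13 bp upstream of phb-2, beside its composite word, had a pooled signal of 2.63 (rank 28429) and a −log10 q-value of 0.449.

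**Figure D3:**
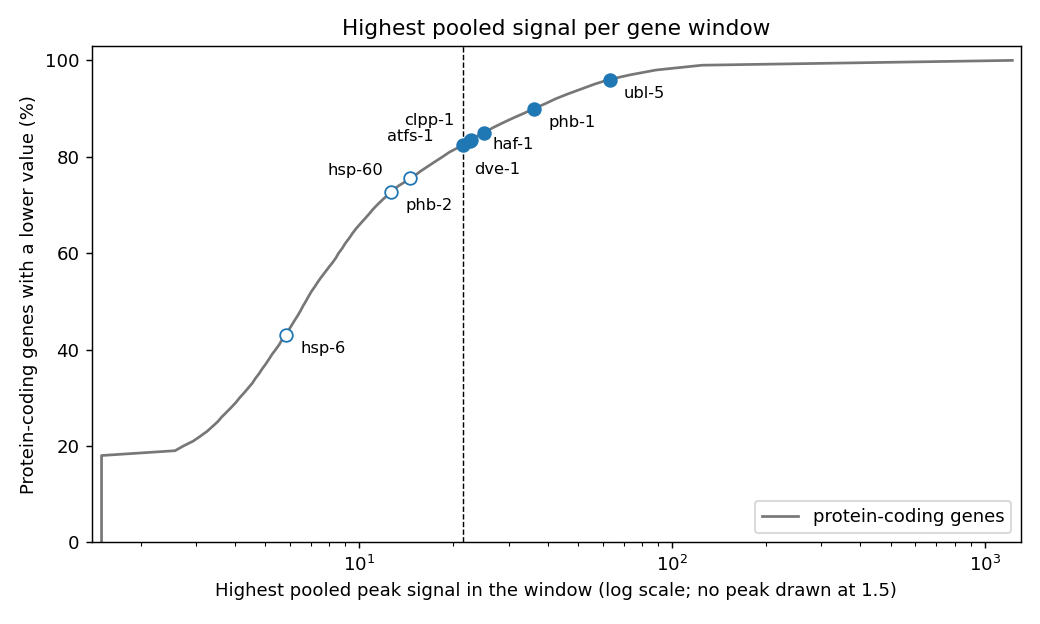
Highest pooled peak signal in each gene window (x axis, log scale) against the percent of protein-coding genes with a lower value (y axis). The curve is all protein-coding genes, filled points are members with an optimal summit, open points those without, and the dashed line is the lowest optimal signal, 21.4.

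Ordered by the highest pooled signal in the window, ubl-5 exceeded 96% of protein-coding genes and phb-1 90%. Then came clpp-1 (85%), haf-1 (83.5%), atfs-1 (83.3%) and dve-1 (82.4%), whose signals of 21.5 to 25.02 lie close together. Below the optimal list were hsp-60 (75.5%), phb-2 (72.7%) and hsp-6 (43.1%). This order rests on 1 pooled value per gene, and the replicate lists ordered the members differently, with ubl-5 highest in both. In replicate 1, clpp-1 (21.4) and dve-1 (20.003) were above phb-1 (19.7), hsp-60 had 6.92, phb-2 had 3.47 and hsp-6 had no summit. In replicate 2, hsp-60 (7.001), hsp-6 (4.04) and phb-2 (3.79) were above clpp-1 (3.52) and atfs-1 (2.20), and dve-1 had no summit. The error of the order of close neighbours was not estimated.

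The words at member summits can be set beside their frequency elsewhere. Over optimal summits, 39.5% had a CRE palindrome, 16.4% a C/EBP palindrome, 11.8% a CRE variant, 9.46% a hybrid, 3.45% a PAR palindrome and 1.84% a composite. In tiles of the genome the CRE and C/EBP palindromes were at 0.552% and 0.149%, and the composite at 0.428%. At pooled summits below the optimal list the composite was at 1.03%. As a share of summits with any full site, the composite was 2.34% on the optimal list (48 of 2054) and 11.6% below it (282 of 2428).

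In the member windows 30 full sites were found, and 18 of them, in 7 genes, were composites, which is 60% against 26.5% of all such words in the genome. None of the 18 lay at an optimal summit, 3 lay at pooled summits and 7 lay inside pooled peak intervals. Of 4 C/EBP palindromes, 3 lay at optimal summits, and of 4 CRE palindromes, 2 did and 3 lay at pooled summits. Across the genome 27.1% of C/EBP palindromes, 18.9% of CRE palindromes and 1.05% of composites lay at optimal summits, and 7.36% of composites lay at pooled summits. For the composite, 0 of 18 at optimal summits is therefore near the genome share. All 7 words in the hsp-6 window and 4 of 6 in the hsp-60 window were composites.

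**Figure D4:**
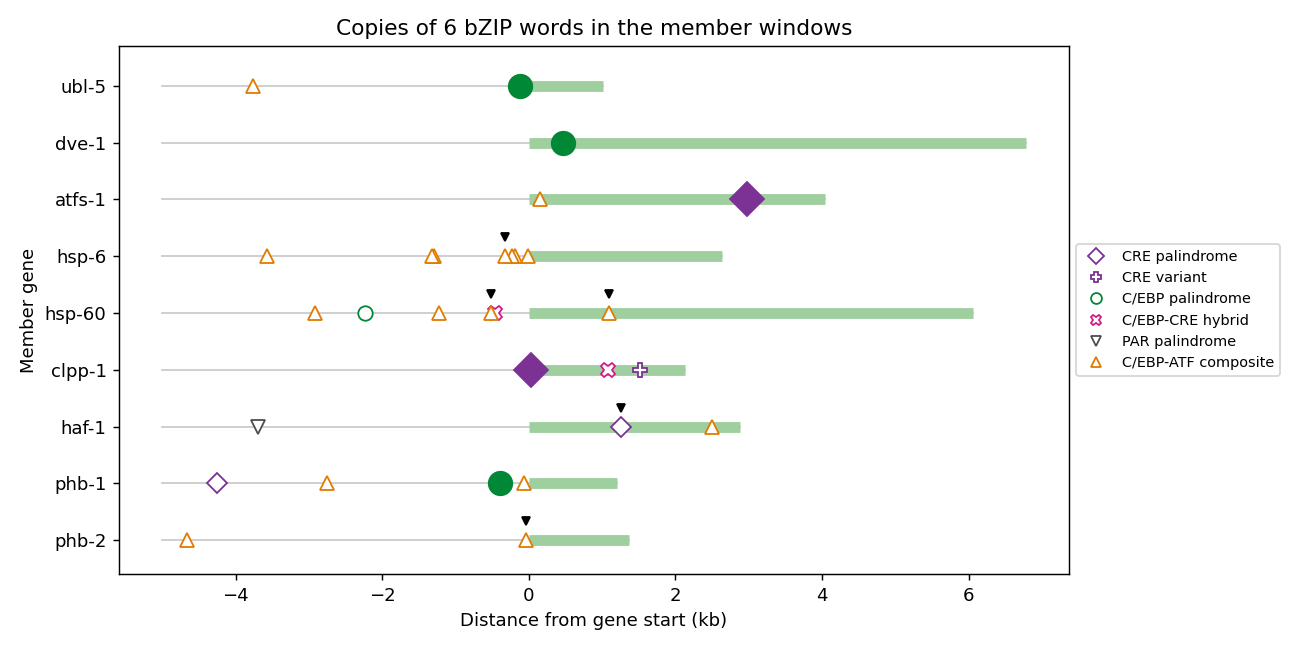
Positions of the 6 words in each member window, by distance from the gene start in kb (x axis), 1 line per gene (y axis). Large filled symbols lie at optimal summits, open symbols do not, and black arrowheads mark words at a pooled or replicate summit below the optimal list. Orange triangles are composites, 18 in all, with 7 in the hsp-6 window.

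Beyond the 9 members, a list of 34 other genes of the pathway, covering signalling, chromatin, import, proteases, chaperones, respiration and mitochondrial ribosomes, gave 4 genes with an optimal summit, beside 17.6% of protein-coding genes. One was smo-1, the SUMO gene, with signal 54.1 (rank 780), 24.4 in replicate 1 and 18.4 in replicate 2, and a CRE palindrome in its coding sequence 357 bp from the start. The import gene timm-17B.1 had 28.9 (rank 1873) at a summit 3070 bp upstream, in an intron of cyc-2.1 and 450 bp from that gene's start, with a composite word. Its replicate signals were 11.05 and 3.26. The histone demethylase gene jmjd-1.2 had 25.5 (rank 2172) at a summit in the 5′ UTR of the collagen gene col-111, with a C/EBP palindrome, 13.8 in replicate 1 and no peak in replicate 2. The protease gene spg-7 had 23.6 (rank 2360) at a summit 1378 bp upstream in the coding sequence of Y47G6A.14, with a hybrid word, 19.7 in replicate 1 and 2.55 in replicate 2. In 3 of the 4 the summit thus lay within another gene, and none of the 3 other chaperones had one. By class, signalling had 1 of 7 genes, chromatin 1 of 8, import 1 of 7, proteases 1 of 4, and respiration and ribosomes 0 of 5. Leaving out replicate 1 gave 7 of 34 genes, beside 17.5% of protein-coding genes, and leaving out replicate 2 gave 2 of 34, beside 17.8%, so on which side of the background the list fell depended on the replicate.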

How the data were processed

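The authors deposited peak lists in narrowPeak format for 2 biological replicates, per the labels 1 group. Per the file headers, each list was made from alignments and a control file, and the optimal list was chosen by IDR. Column 7 was used as the peak signal, as deposited by the authors, with no further normalization. The deposited −log10 q-value was constant over the optimal list and was not used to rank or select peaks. No source used here names the aligner, the peak caller or the IDR threshold. Of the 2634 optimal peaks, 2628 were identical to the top of the pooled list.

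Gene models came from Ensembl release 115 (WBcel235). Peaks were assigned by summit, overlaps needed 1 bp, and words were counted wholly within 50 bp of a summit. Scripts used Python 3.11.15, pandas 2.3.3 and numpy 2.4.6 and were tested on simulated data. The comparisons are counts beside the share over all protein-coding genes, with no statistical test. Members, pathway genes and words were chosen with earlier results of these data known. Of 35 other pathway names 34 were found in the annotation; trap-1 was dropped after the annotation was seen, because that worm symbol names another gene. Every member was described, and of the other pathway genes those with an optimal summit were named. Alternatives were a shorter window, a promoter window, nearest starts, a stricter signal, other site distances and overlaps, each replicate left out, and the ce10 list length, the last chosen after seeing the data.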

Additional observations from a re-analysis of the deposited data

How the results depend on the processing

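No paired analysis was possible because both replicates belong to 1 group. Shares in brackets are those of all protein-coding genes, or of all peaks, in the same setting. With only the optimal peaks of signal above the median, 1 member of 9 (ubl-5; 9.3%) and 1 summit remained from 6, so the count was then about the background share. That summit had a full site (84.2%), 1 of 1 overlapped both replicates (90.8%), and 1 other pathway gene of 34 was left from 4. Leaving out a replicate gave 3 to 6 members, 3 to 6 summits, 1 to 5 summits with a full site and 2 to 7 other pathway genes. The other pathway genes numbered 2 with a 2 kb window (11.6%), 0 in promoters (4.37%) and 2 by nearest start (9.58%), and the background fell with them. Among the top peaks of each replicate list, 2 of 6 member peaks were found in both (50.2%). At the ce10 list length, chosen after seeing the data, 4 members were counted (16.6%). The cause of these moves was not tested, beyond the smaller lists and windows used.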
